A study of Homo sapiens with 18 samples.

Results

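The chemoattractant receptor genes of monocytes and neutrophils described here are 9 genes listed by name, CCR1, CCR2, CCR7, CX3CR1, CXCR2, CXCR4, FPR1, C5AR1 and C3AR1, and all 9 were found among the 58037 gene IDs of the count table. Their mRNA expression was followed by RNA sequencing in 18 libraries of 3 human acute myeloid leukemia (AML) cell lines, harvested after 16 h. MOLM13 cells, which carry the MLL-AF9 fusion, were left untreated or received 500 nM SNDX-50469 (an inhibitor of the contact between Menin and MLL, named VTP in the sample titles), 500 nM OTX015 (an inhibitor of the BET chromatin readers) or both agents, with 2 libraries in each of the 4 groups. MV4-11 cells, with an MLL rearrangement, received 1000 nM SNDX-50469 or none (2 libraries each), and OCI-AML3 cells, with mutant NPM1 and germline MLL, received 500 nM or none (3 libraries each). OTX015 was given to MOLM13 cells only, and MV4-11 cells grew in a different medium (IMDM) from the other lines (RPMI), so line, dose and medium cannot be told apart for MV4-11.

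Chemoattractant receptors are seven-helix membrane proteins that couple mainly to Gi-type G proteins and steer leukocytes along gradients of chemokines, complement fragments or bacterial peptides. CCR2 brings classical monocytes out of the bone marrow toward CCL2, CX3CR1 marks patrolling monocytes and binds fractalkine, CXCR2 draws neutrophils toward CXCL8 and related chemokines, and CXCR4 holds blood progenitors and neutrophils in the marrow by binding CXCL12. FPR1 senses formylated peptides, and C5AR1 and C3AR1 sense the complement fragments C5a and C3a. These 3 receptors appear as myeloid cells mature, whereas CCR7 guides dendritic cells and lymphocytes to lymph nodes and CCR1 binds CCL3 and CCL5 on monocytes.

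RefSeq promoter windows on GRCh38.p14 were matched by symbol for 8 of the 9 genes (12 windows, since CX3CR1 and CXCR4 have 3 each), and CCR7 was named only. The 250 bases before the annotated start are shown for 4 genes, in the direction of transcription. CCR2 and CCR1 lie in the same receptor cluster on chromosome 3, with CCR3 between them. Among the 9 genes they hold the largest falls under OTX015, and FPR1 and C5AR1 hold the largest rises under both agents together. The CCR2 window lies at chr3:46353861-46354110 on the plus strand and the CCR1 window at chr3:46208314-46208563 on the minus strand. The FPR1 window lies at chr19:51751879-51752128 on the minus strand and the C5AR1 window at chr19:47309611-47309860 on the plus strand. The C5AR1 window precedes the start listed for the promoter but lies inside the span of the RefSeq gene, which begins farther upstream. Capitals mark matches, on either strand, to short motifs of myeloid regulators.
CCR2: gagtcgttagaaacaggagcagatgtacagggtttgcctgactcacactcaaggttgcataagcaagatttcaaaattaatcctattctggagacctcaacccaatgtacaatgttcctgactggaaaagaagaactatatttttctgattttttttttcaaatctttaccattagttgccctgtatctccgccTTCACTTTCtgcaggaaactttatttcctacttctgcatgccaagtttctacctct
CCR1: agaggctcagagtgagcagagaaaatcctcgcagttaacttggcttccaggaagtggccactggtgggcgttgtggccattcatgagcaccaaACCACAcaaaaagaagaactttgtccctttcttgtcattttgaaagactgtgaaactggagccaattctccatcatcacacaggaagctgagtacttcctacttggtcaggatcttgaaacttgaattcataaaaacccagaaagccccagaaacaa
FPR1: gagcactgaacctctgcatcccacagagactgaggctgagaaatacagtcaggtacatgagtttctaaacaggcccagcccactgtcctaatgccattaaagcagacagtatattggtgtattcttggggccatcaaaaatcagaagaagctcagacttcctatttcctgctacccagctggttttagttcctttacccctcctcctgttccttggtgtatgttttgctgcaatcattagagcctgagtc
C5AR1: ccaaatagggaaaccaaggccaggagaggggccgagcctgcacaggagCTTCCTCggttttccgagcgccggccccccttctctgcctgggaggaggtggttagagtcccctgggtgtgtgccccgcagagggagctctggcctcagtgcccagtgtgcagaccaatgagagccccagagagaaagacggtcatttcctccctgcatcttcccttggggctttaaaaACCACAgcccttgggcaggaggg
The motifs searched were GAGGAAG (PU.1), TGTGGT (RUNX), GAAANNGAA (IRF), AACTGNC (MYB), TGACAG (MEIS) and TATAAA (the TATA box), on both strands, and the matches shown do not overlap. The CCR2 window held an IRF match 56 bases before the start, and 6.88% of the 35116 RefSeq promoters of the same length held one. CCR1 and C5AR1 each held a RUNX match (11.0% of promoters), and C5AR1 also held a PU.1 match (11.2%). The FPR1 window held none of these letters, and a match describes the sequence only.

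The libraries held between 19320216 and 59711884 counts, with the deepest in OCI-AML3 (49881047 to 59711884). A count of 0 therefore allows up to 3 counts, which is 0.0502 CPM (counts scaled by library size) in the deepest library and 0.155 CPM in the shallowest. Intervals and floors cover counting error only. The 2 MV4-11 control libraries differed most from each other (chi-square of 43.9 per degree of freedom). Mitochondrial transcripts took 10.3% of counts in MV4-11 control library 1 against 5.60 to 6.68% in the other MV4-11 libraries, and 7.17 to 8.04% in OCI-AML3. In MOLM13 cells their share was 4.36 to 4.83% in the controls, 4.98 to 5.50% with SNDX-50469, 5.56 to 5.60% with OTX015 and 5.74 to 6.01% with both, without overlap, so it moved with the treatments, and its part in the results was not tested. Myeloid markers were present in every group (8 or 9 of 9 genes above 1 CPM). Of the 7 erythroid and platelet markers, none was above 1 CPM in MOLM13 or OCI-AML3 cells, and 1 was in MV4-11 cells.

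**Figure D1:**
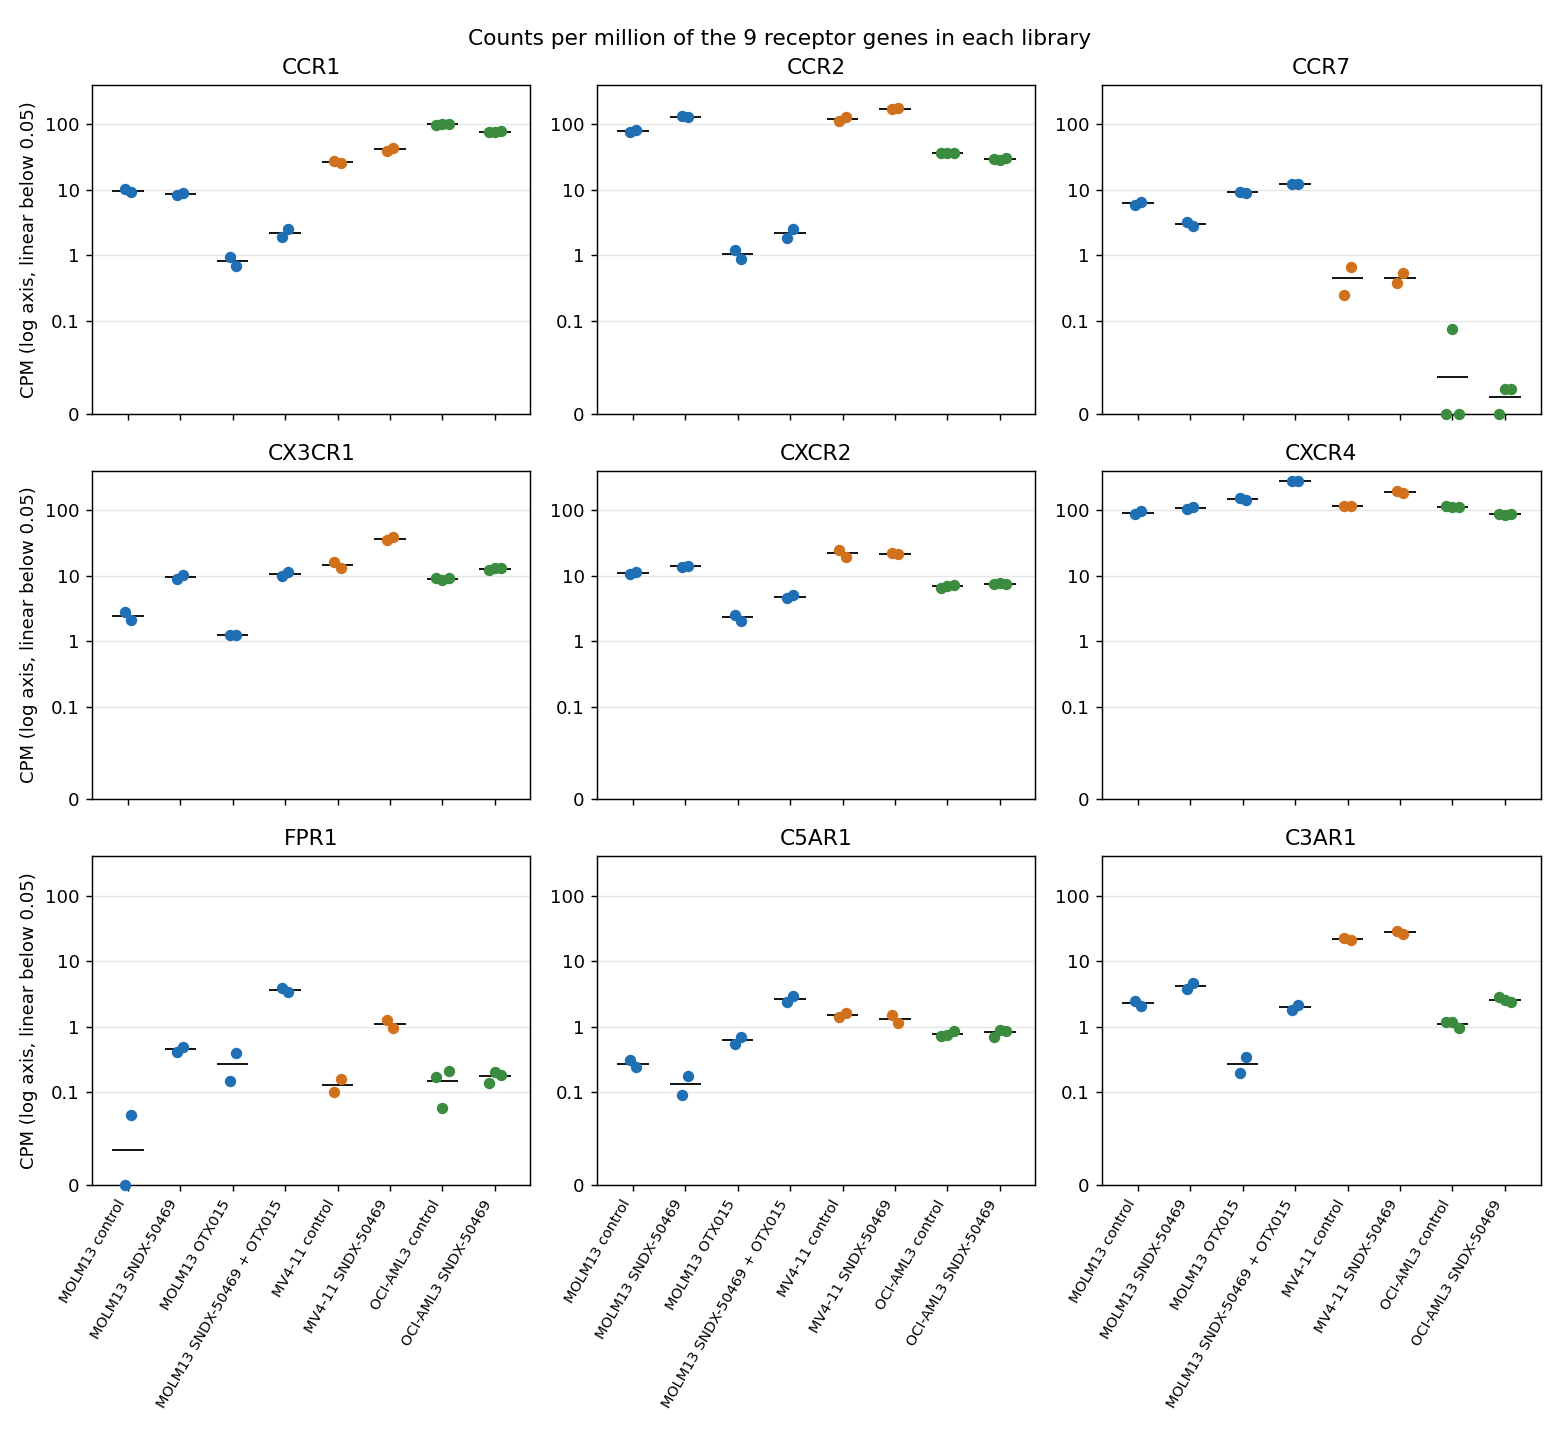
CPM (log axis, linear below 0.05) of each receptor gene, with 1 point per library, a black line at the group mean and a color for each cell line (blue MOLM13, orange MV4-11, green OCI-AML3). CCR2 and CCR1 drop in the MOLM13 groups with OTX015, CXCR4 is above 80 CPM in every library, and FPR1 is highest in MOLM13 cells with both agents (3.36 and 3.92 CPM).

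Scaled by exon length, CXCR4 had the highest mean share of the 9 genes in all 8 groups, and its range overlapped with that of CCR1 in both OCI-AML3 groups. CXCR4 took 49.8% ± 0.84 (SD, n = 2) of the summed CPM per kb of the 9 genes in untreated MOLM13 cells and CCR2 took 32.7% ± 0.124. SNDX-50469 moved these shares to 44.3% and 40.4%. With OTX015 the CXCR4 share was 90.0% ± 0.209 and the CCR2 share 0.469% ± 0.0737, and with both agents they were 87.5% and 0.514%. CXCR4 mRNA thus made up most of the group in MOLM13 cells whenever OTX015 was present. In untreated OCI-AML3 cells CXCR4 took 42.4% ± 0.652 and CCR1 41.4% ± 0.612 (n = 3), and with SNDX-50469 they took 40.2% ± 0.482 and 39.8% ± 0.355. The summed level of the 9 genes was 63.1, 83.4, 56.9 and 109 CPM per kb in MOLM13 control, SNDX-50469, OTX015 and both, 98.8 and 151 in MV4-11 control and SNDX-50469, and 91.1 and 73.1 in OCI-AML3. The sum therefore rose with SNDX-50469 in the MLL-rearranged lines and was lower with it in OCI-AML3, as a description of the group means. Exon lengths came from a GENCODE annotation other than the authors', so levels between genes are approximate.

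**Figure D2:**
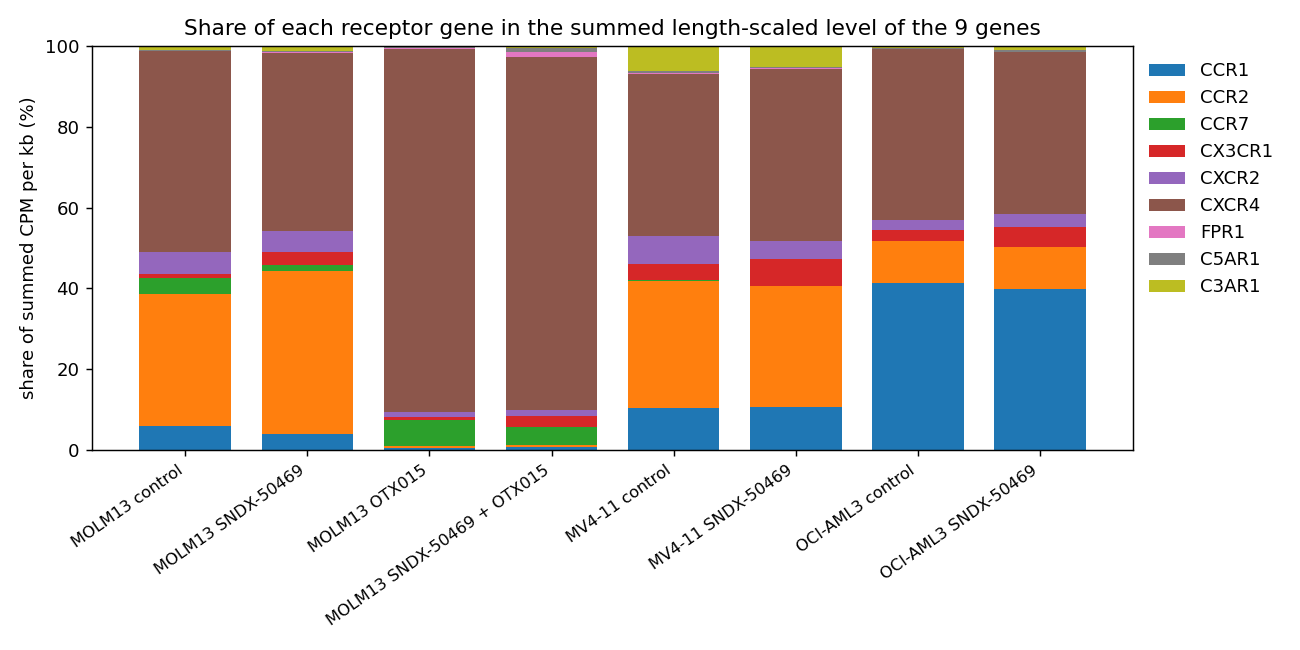
Share (%) of each receptor gene in the summed CPM per kb of the 9 genes, as group means over 2 or 3 libraries. CXCR4 takes 49.8% in untreated MOLM13 cells and 90.0% with OTX015, while CCR2 goes from 32.7% to 0.469%.

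CCR2 (ENSG00000121807, chr3:46354111-46360940), the receptor for CCL2, showed the largest fall. Positions here and below are RefSeq genes on GRCh38.p14. Its level was 77.5 and 82.3 CPM in the untreated MOLM13 libraries, 133 and 128 CPM with SNDX-50469, 1.20 and 0.882 CPM with OTX015 and 1.83 and 2.51 CPM with both agents. The 4 groups did not overlap. In raw counts, 1518 and 1714 reads in the controls stood against 24 and 18 with OTX015. Expression rose with SNDX-50469 by a log2 fold-change of 0.74 ± 0.05 (SE, n = 2 against 2, adjusted p = 1.56e-17, edgeR) and fell by 6.23 ± 0.12 with OTX015 (75.2-fold lower, adjusted p = 5.39e-49). With both agents it was 36.7-fold below the control (log2 fold-change -5.20 ± 0.11), yet higher than with OTX015 alone by 1.04 ± 0.26 (adjusted p = 0.000589). In MV4-11 cells CCR2 stood at 111 and 129 CPM without and 170 and 179 CPM with SNDX-50469, a rise of 0.56 ± 0.15 (adjusted p = 0.016). That call was lost without control library 1 (0.43, adjusted p = 0.217) and without treated library 1 (0.57, adjusted p = 0.0502). In OCI-AML3 cells the values were 37.0, 36.8 and 36.3 CPM without and 29.5, 28.9 and 30.3 CPM with the agent, a log2 fold-change of -0.31 ± 0.03 (adjusted p = 1.09e-05) that missed the fold limit of the study (0.32 on the log2 scale), which a call required besides an adjusted p below 0.05, although the groups did not overlap. Over the 8 groups CCR2 was highest in treated MV4-11 cells. Treated MOLM13 and untreated MV4-11 cells came next and overlapped, and the OTX015 group of MOLM13 was lowest.

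Markers of other cell types also differed between the MOLM13 groups, not all in the direction of CCR2. The summed level of 8 monocyte markers was 248 to 262 CPM in the controls, 438 to 466 with SNDX-50469, 80.8 to 83.7 with OTX015 and 157 to 164 with both, most of it LYZ. The sum of 7 T and NK cell markers was 43.8 to 47.4 CPM in the controls, 46.5 to 47.1 with SNDX-50469, 11.4 to 12 with OTX015 and 17.9 to 18.4 with both. The sum of 8 neutrophil markers, led by ELANE, was 1380 to 1410, 1270 to 1310, 1640 to 1680 and 1110 to 1150 CPM in the same order, with MMP8 and CEACAM8 at 0 in all 4 groups. Of the 7 T and NK cell markers, NKG7 and CD3D were above 1 CPM in each MOLM13 group, while 3 were at 0 in the controls, 2 with SNDX-50469, 4 with OTX015 and 2 with both. The 9 myeloid blast markers summed to 1600 to 1610 CPM in the controls and 1560 to 1570 with SNDX-50469. With OTX015 they summed to 1280 to 1300 CPM, and with both agents to 1580 to 1600. The 8 epithelial and stromal markers summed to 1.23 to 1.68 CPM in the controls and 1.29 to 1.45 with SNDX-50469. With OTX015 they summed to 0.648 to 0.931 CPM, and with both agents to 3.01 to 3.55. The part of all these markers in the result was not tested. In bulk RNA, fewer cells that express a receptor and less mRNA per cell cannot be told apart.

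CCR1 (ENSG00000163823, chr3:46201711-46208313), which binds CCL3 and CCL5, lies 152.5 kb from CCR2 (midpoint to midpoint) and also fell under OTX015. The untreated MOLM13 libraries held 10.3 and 9.27 CPM, those with SNDX-50469 8.26 and 9.09 CPM, those with OTX015 0.947 and 0.686 CPM and those with both 1.94 and 2.51 CPM. SNDX-50469 alone gave a log2 fold-change of -0.14 ± 0.13 (adjusted p = 0.451), so no change was detected. OTX015 lowered CCR1 by 11.7-fold (log2 fold-change -3.55 ± 0.22, adjusted p = 1.04e-22), and both agents left it 4.39-fold below the control (-2.13 ± 0.18). Adding SNDX-50469 to OTX015 thus raised CCR1 by 1.41 ± 0.29 (adjusted p = 3.78e-05). In MV4-11 cells CCR1 went from 28.1 and 26.0 CPM to 39.8 and 44.1 CPM with SNDX-50469. This rise of 0.65 ± 0.16 (adjusted p = 0.00849) was no longer called without control library 2 (0.61, adjusted p = 0.0624). OCI-AML3 cells held the most CCR1 mRNA, with 98.6, 101 and 99.9 CPM untreated and 76.0, 76.7 and 78.5 CPM treated, a fall of 0.37 ± 0.03 (1.29-fold, adjusted p = 3.45e-07). The fall in OCI-AML3 dropped under the fold limit when no scaling factors were used (-0.32). Neighboring groups in the order of CCR1 levels stood apart by more than their SDs except untreated and SNDX-50469-treated MOLM13 cells.

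CCR7 (ENSG00000126353, chr17:40553769-40565472), the lymph node homing receptor, moved the other way from CCR2 under each agent. Its level was 5.98 and 6.53 CPM in the MOLM13 controls, 3.28 and 2.81 CPM with SNDX-50469, 9.37 and 9.01 CPM with OTX015 and 12.2 CPM in each library with both. SNDX-50469 lowered it by 2.01-fold (log2 fold-change -1.01 ± 0.17, adjusted p = 1.44e-06), while OTX015 raised it by 0.58 ± 0.14 (adjusted p = 0.000181) and both agents by 0.96 ± 0.13 (adjusted p = 1.89e-09). The rise of 0.38 ± 0.12 from OTX015 to both agents (adjusted p = 0.00714) was lost without OTX015 library 2 (0.34, adjusted p = 0.0501) and in a fit of all 18 libraries (0.41, adjusted p = 0.104). CCR7 was mostly a MOLM13 transcript. MV4-11 libraries held 5 and 21 reads untreated and 11 and 16 treated, and OCI-AML3 libraries held 0, 4 and 0 untreated and 0, 1 and 1 treated. CCR7 was not tested within OCI-AML3, and its response there has no usable estimate (SE of 5.09 for the difference from MOLM13).

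CX3CR1 (ENSG00000168329, chr3:39263494-39292966), the fractalkine receptor of patrolling monocytes, rose with SNDX-50469 in all 3 lines. It stood at 2.76 and 2.11 CPM in untreated MOLM13 cells, 9.0 and 10.2 CPM with SNDX-50469, 1.246 and 1.225 CPM with OTX015 and 9.94 and 11.4 CPM with both. The fold-changes against the control were 4.03-fold up with SNDX-50469 (log2 fold-change 2.01 ± 0.17, adjusted p = 2.61e-15), 1.92-fold down with OTX015 (-0.94 ± 0.26, adjusted p = 0.00123) and 4.39-fold up with both (2.13 ± 0.17). The combination and SNDX-50469 alone overlapped and gave a difference of 0.12 ± 0.13 (adjusted p = 0.4). Over OTX015 alone the combination was 8.45-fold higher (3.08 ± 0.19, adjusted p = 9.89e-22). In MV4-11 cells CX3CR1 went from 16.2 and 13.2 CPM to 34.4 and 38.6 CPM (1.34 ± 0.17, adjusted p = 5.25e-05). In OCI-AML3 cells it went from 9.03, 8.67 and 9.18 CPM to 12.2, 13 and 13.1 CPM (0.52 ± 0.05, adjusted p = 6.78e-06). In each line the treated libraries lay above every untreated one. The gene overlaps the pseudogene ADAD1P1, whose reads could not be told apart without a known strand setting.

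CXCR2 (ENSG00000180871, chr2:218125294-218137251), the neutrophil receptor for CXCL8, fell with OTX015 and was higher again, though below the control, when SNDX-50469 was added. Its level in MOLM13 libraries was 10.6 and 11.3 CPM untreated, 13.6 and 14 CPM with SNDX-50469, 2.54 and 2.06 CPM with OTX015 and 4.52 and 4.97 CPM with both. The 4 groups did not overlap. The rise with SNDX-50469 was 0.36 ± 0.11 (1.28-fold, adjusted p = 0.0109), close to the fold limit, and was lost without control library 1 (0.32, adjusted p = 0.101) or treated library 2 (0.33, adjusted p = 0.0978) and in a fit of all 18 libraries (0.33, adjusted p = 0.0665). OTX015 lowered CXCR2 by 4.67-fold (-2.22 ± 0.16, adjusted p = 3.45e-19) and both agents by 2.31-fold (-1.21 ± 0.14, adjusted p = 1.36e-11), and the combination was 2.02-fold above OTX015 alone (1.01 ± 0.19). In MV4-11 cells CXCR2 stood at 24.9 and 19.5 CPM untreated and 21.87 and 21.28 CPM treated, and the groups overlapped (log2 fold-change -0.02 ± 0.17, adjusted p = 0.961). In OCI-AML3 cells the values were 6.41, 6.94 and 7.12 CPM untreated and 7.54, 7.66 and 7.32 CPM treated (0.14 ± 0.06, adjusted p = 0.103).

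CXCR4 (ENSG00000121966, chr2:136114349-136118149), the CXCL12 receptor that retains cells in the marrow, rose under OTX015 and rose further with both agents. MOLM13 libraries held 87.8 and 94.9 CPM untreated, 104 and 110 CPM with SNDX-50469, 155 and 142 CPM with OTX015 and 275 and 278 CPM with both. These groups did not overlap. The SNDX-50469 difference of 0.26 ± 0.05 (adjusted p = 2.87e-05) missed the fold limit. The rise was 0.73 ± 0.05 with OTX015 (adjusted p = 1.56e-20) and 1.59 ± 0.05 with both (3.02-fold, adjusted p = 7.12e-39). In MV4-11 cells CXCR4 rose from 115 and 115 CPM to 193 and 179 CPM (0.71 ± 0.15, adjusted p = 0.00266). In OCI-AML3 cells it fell from 114, 110 and 112 CPM to 86.2, 83.7 and 86.2 CPM (-0.39 ± 0.03, adjusted p = 2.43e-07). CXCR4 and CCR1 were both called higher in MV4-11 and lower in OCI-AML3 cells, while CCR2, called higher in MOLM13 and MV4-11, had a value below 0 in OCI-AML3 that missed the fold limit. CXCL12, the ligand of CXCR4, had 0 counts in all MOLM13 and MV4-11 libraries and 7 to 16 counts in OCI-AML3.

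FPR1 (ENSG00000171051, chr19:51745172-51751878), the formyl peptide receptor, was near the detection limit in untreated cells and highest with both agents. Untreated MOLM13 libraries held 0 and 1 reads, those with SNDX-50469 9 and 11, those with OTX015 3 and 8, and those with both 73 and 67. Against the single control read, the ratio of summed reads, scaled by library size, was 19.2 with SNDX-50469 (95% exact interval 3.07 to 796), 11.5 with OTX015 (1.68 to 497) and 157 with both (27.6 to 6230). All 3 differences were called (adjusted p of 0.000886, 0.00884 and 4.4e-16). The OTX015 call was lost without control library 1 (adjusted p = 0.0902) and without OTX015 library 2 (adjusted p = 0.166). With both agents FPR1 was 7.80-fold above SNDX-50469 alone (log2 fold-change 2.96 ± 0.35, adjusted p = 2.29e-11) and 12.8-fold above OTX015 alone (3.68 ± 0.40, adjusted p = 2.34e-12). In MV4-11 cells it rose from 2 and 5 reads to 36 and 29 with SNDX-50469 (8.0-fold, 3.00 ± 0.57, adjusted p = 0.00139), a call that was lost without treated library 1 (2.79, adjusted p = 0.0531). OCI-AML3 libraries held 9, 3 and 13 reads untreated and 8, 12 and 11 treated (0.23 ± 0.42, adjusted p = 0.713). FPR1 passed the filter on low counts only through its high groups in MOLM13 and MV4-11 cells, so it could pass there only by differing.

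C5AR1 (ENSG00000197405, chr19:47307477-47322066), the C5a receptor, was low in every group and rose only with both agents among the MOLM13 comparisons with the control. The MOLM13 libraries held 6 and 5 reads untreated, 2 and 4 with SNDX-50469, 11 and 14 with OTX015 and 45 and 59 with both. The combination stood at 2.42 and 2.96 CPM against 0.307 and 0.240 CPM in the controls (9.67-fold, log2 fold-change 3.27 ± 0.42, adjusted p = 2.52e-10). C5AR1 passed the filter on low counts in MOLM13 cells only through the groups with OTX015, so it could pass there only by differing. SNDX-50469 alone gave -0.95 ± 0.75 (adjusted p = 0.354) and OTX015 alone 1.19 ± 0.55 (adjusted p = 0.0521). The OTX015 value passed the threshold without scaling factors (1.23, adjusted p = 0.043) and in a fit of all 18 libraries (1.17, adjusted p = 0.0408). In MV4-11 cells C5AR1 was 1.41 and 1.59 CPM untreated and 1.49 and 1.13 CPM treated, and in OCI-AML3 cells 0.712, 0.740 and 0.868 CPM untreated and 0.704, 0.898 and 0.871 CPM treated. The treated and untreated groups overlapped in both lines.

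C3AR1 (ENSG00000171860, chr12:8056844-8066359), the C3a receptor, fell under OTX015 and stood near its control level with both agents. It measured 2.45 and 2.06 CPM in MOLM13 controls, 3.74 and 4.66 CPM with SNDX-50469, 0.199 and 0.343 CPM with OTX015 and 1.83 and 2.16 CPM with both. SNDX-50469 raised it by 1.90-fold (0.93 ± 0.22, adjusted p = 0.000664), and OTX015 lowered it by 7.99-fold (-3.00 ± 0.40, adjusted p = 1.06e-09, 4 and 7 reads). The combination overlapped with the controls (-0.18 ± 0.26, adjusted p = 0.544) and lay 7.06-fold above OTX015 alone (2.82 ± 0.41, adjusted p = 1.96e-08). In OCI-AML3 cells C3AR1 had the largest response of the 8 genes tested to SNDX-50469, from 1.19, 1.20 and 0.948 CPM to 2.82, 2.54 and 2.38 CPM (2.34-fold, 1.23 ± 0.13, adjusted p = 7.67e-06). In MV4-11 cells, where it was most abundant, it stood at 22.2 and 21.2 CPM untreated and 28.6 and 26.3 CPM treated (0.36 ± 0.16, adjusted p = 0.13). Treated OCI-AML3 cells, untreated MOLM13 cells and MOLM13 cells with both agents overlapped with their neighbors in the order of C3AR1 levels.

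**Figure D3:**
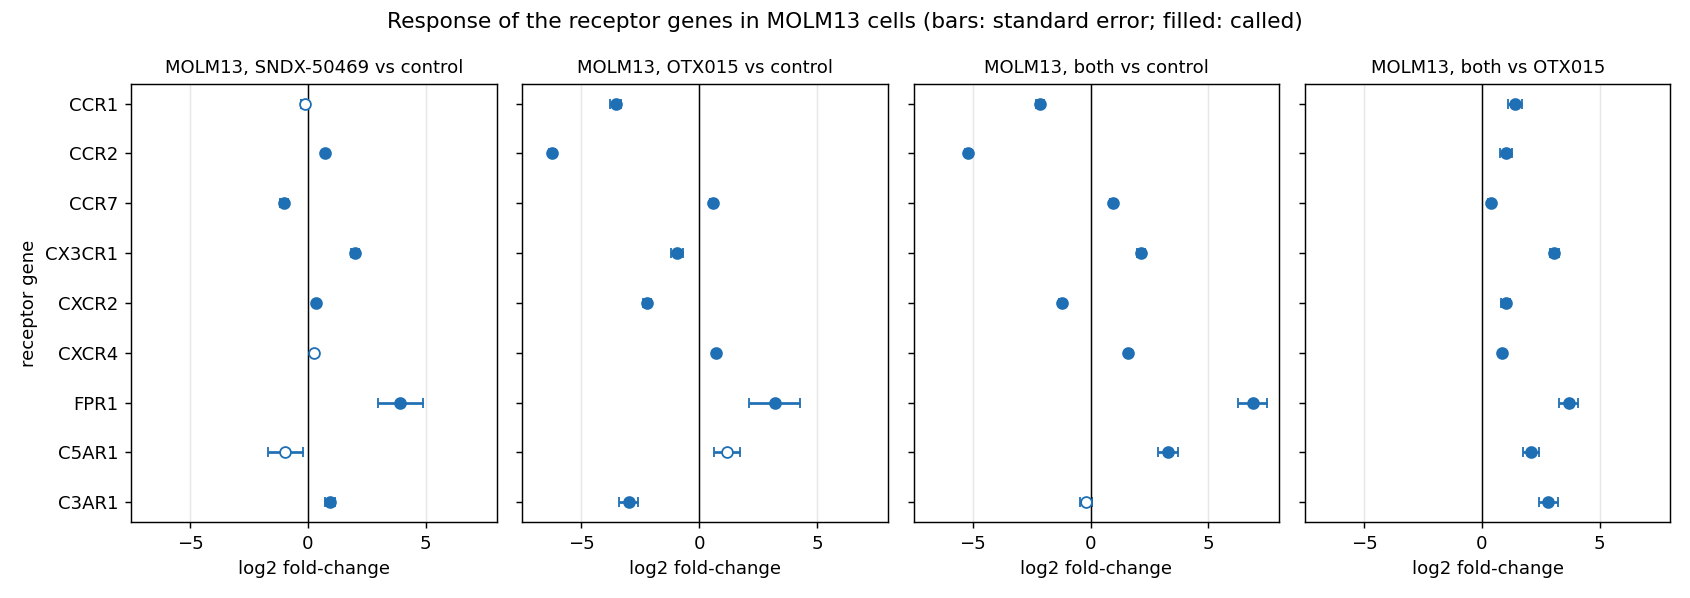
Log2 fold-change of each receptor gene in MOLM13 cells, with bars for the standard error and filled points for genes called at an adjusted p below 0.05 and past the fold limit. In the panel of both agents against OTX015 all 9 points lie to the right of 0, while under OTX015 alone CCR2 (-6.23), CCR1 (-3.55) and C3AR1 (-3.00) lie farthest to the left. FPR1 against the control rests on 1 control read.

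As a group in MOLM13 cells, 5 of the 9 genes rose and 1 fell with SNDX-50469, where 8.06% of the 14360 genes tested rose and 5.24% fell. With OTX015, 3 rose and 5 fell, against 23.5% and 24.7% of all genes. Both agents together gave 5 higher and 3 lower than the control (31.2% and 30.9% of all genes). Relative to SNDX-50469 alone, adding OTX015 raised 4 and lowered 4 (27.9% and 29.0%). Relative to OTX015 alone, adding SNDX-50469 raised 9 and lowered 0, with 18.4% of all genes higher and 16.5% lower. FPR1 passed the filter in this line only through the group with both agents, and C5AR1 only through the groups with OTX015. FPR1 is among the rises in each comparison with the control, and C5AR1 among those with both agents. Both genes are among the 4 raised by adding OTX015 to SNDX-50469. Both are also among the 9 raised relative to OTX015 alone. DESeq2 called 8 of the 9, as did limma-voom, with CCR7 the gene lost in both (0.39, adjusted p = 0.0663 with DESeq2). The median log2 fold-change of the 9 genes was 0.36 with SNDX-50469, -0.94 with OTX015, 0.96 with both against the control, 0.12 with both against SNDX-50469 and 1.41 with both against OTX015, where the medians of all genes lay between -0.02 and 0.018. These comparisons share libraries and are not independent of each other. Without scaling factors, the share of called genes that rose with SNDX-50469 in MOLM13 was 74.4% in place of 60.6%, while it was 54.2% with RLE scaling, 50.0% with DESeq2, 49.5% without the filter and 47.6% in a fit of all libraries. Without scaling factors the 6 receptor genes called were again 5 higher and 1 lower.

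The effect of SNDX-50469 differed with and without OTX015 for most of the genes. The interaction, which is the SNDX-50469 effect in the presence of OTX015 minus that in its absence, was above 0 and called for 7 of the 9 genes and below 0 for none, against 11.5% and 12.7% of all genes. C5AR1, with SNDX-50469 effects of -0.95 ± 0.75 alone and 2.08 ± 0.35 on top of OTX015, had the highest estimate (3.04 ± 0.84, adjusted p = 0.00307). It passed the filter only through the groups with OTX015 and had 2 to 6 reads in each library without it. C3AR1 gave 1.89 ± 0.49 (adjusted p = 0.00161) and CCR1 1.56 ± 0.32 (adjusted p = 8.22e-05). CCR7 changed direction, from a fall of 1.01 alone to a rise of 0.38 on top of OTX015 (interaction 1.39 ± 0.21, adjusted p = 1.03e-07). For CXCR4 the interaction was 0.60 ± 0.07 (adjusted p = 5.44e-11). CX3CR1 gave 1.07 ± 0.29 (adjusted p = 0.00253), which was not called without control library 1 (0.86, adjusted p = 0.0508). CXCR2 gave 0.65 ± 0.22 (adjusted p = 0.0177) and was not called without control library 2 (0.61, adjusted p = 0.0502), OTX015 library 2 (0.51, adjusted p = 0.139) or combination library 2 (0.59, adjusted p = 0.0722). CCR2 (0.30 ± 0.27, adjusted p = 0.43) and FPR1 (-0.23 ± 0.73, adjusted p = 0.845) passed no threshold, and the FPR1 value rests on 1 control read.

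In MV4-11 cells SNDX-50469 raised 5 of the 9 genes (CCR1, CCR2, CX3CR1, CXCR4 and FPR1) and lowered 0, while 11.4% of the 15486 genes tested rose and 9.34% fell. FPR1 passed the filter there only through the treated libraries, so it could pass only by differing. Without treated library 1, 3 genes were called, with CCR2 and FPR1 lost, and without either control library 4 were. The sum of the 8 monocyte markers was 1900 to 1950 CPM in the controls and 2020 to 2110 CPM with SNDX-50469. That of the 7 T and NK cell markers, nearly all NKG7, was 52.3 to 69.7 and 91.9 to 121 CPM. Myeloid blast markers (1530 to 1570 and 1710 to 1780) and B cell markers (4.49 to 5.24 and 5.81 to 7.48) did not overlap either. The part of these markers was not tested. In OCI-AML3 cells SNDX-50469 raised CX3CR1 and C3AR1 and lowered CCR1 and CXCR4, which is 2 and 2 of the 8 genes tested. Of all 16611 genes, 8.58% rose and 4.53% fell. Among called genes in OCI-AML3, 65.5% rose, against 76.5% without scaling factors and 50.8% after quantile normalization with limma-voom, and without scaling factors 1 receptor gene fell in place of 2. CX3CR1 was called higher in each line. Between untreated and treated OCI-AML3 cells the summed monocyte markers overlapped (382 to 426 and 404 to 414 CPM), whereas neutrophil markers (687 to 715 and 614 to 639), myeloid blast markers (898 to 991 and 840 to 860), T and NK cell markers (1.96 to 2.64 and 1.59 to 1.85), B cell markers (0.655 to 0.949 and 2.4 to 2.73) and epithelial and stromal markers (1.17 to 1.61 and 1.73 to 2.25) did not, and their part was not tested.

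**Figure D4:**
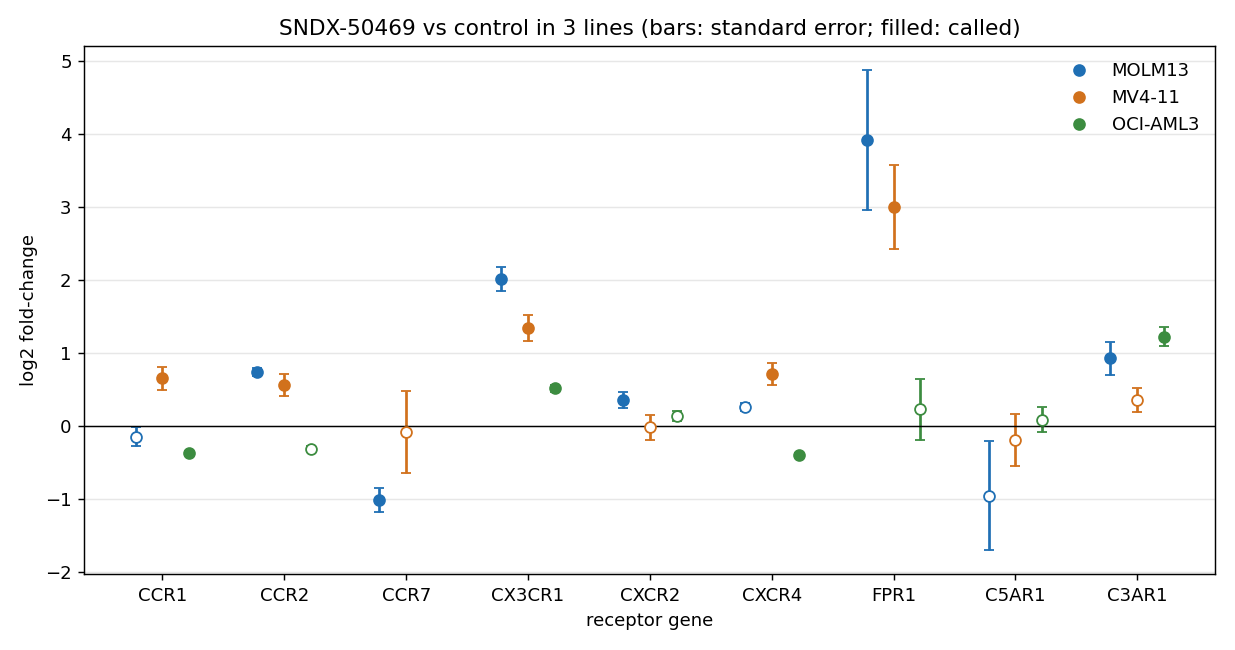
Log2 fold-change of each receptor gene with SNDX-50469 in MOLM13 (blue, 500 nM), MV4-11 (orange, 1000 nM) and OCI-AML3 (green, 500 nM) cells, with bars for the standard error and filled points for called genes. CX3CR1 is above 0 in all lines (2.01, 1.34 and 0.52), while CXCR4 is at 0.26, 0.71 and -0.39. CCR7 has no point in OCI-AML3.

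The difference in response between lines was tested in 1 fit of all libraries. Relative to MOLM13, the OCI-AML3 response was lower for 3 genes and higher for 0, namely CX3CR1 (-1.47 ± 0.18, adjusted p = 2.48e-05), CCR2 (-1.02 ± 0.10, adjusted p = 8.75e-07) and CXCR4 (-0.63 ± 0.08, adjusted p = 3.64e-05), where 1.49% of the 17597 genes tested had a lower and 2.60% a higher response. FPR1 gave -3.77 ± 1.11 (adjusted p = 0.0622), which became a call without OCI-AML3 control library 2 (-4.13, adjusted p = 0.0226). The MV4-11 response was higher than that of MOLM13 for CCR1 (0.81 ± 0.13, adjusted p = 0.00022) and CXCR4 (0.46 ± 0.09, adjusted p = 0.000929) and lower for CX3CR1 (-0.65 ± 0.20, adjusted p = 0.0214), against 10.5% of all genes higher and 10.1% lower. The CX3CR1 difference between MV4-11 and MOLM13 was lost without any of 4 single libraries, namely MOLM13 control 2 (-0.47), MOLM13 treated 2 (-0.56), MV4-11 control 1 (-0.51) or MV4-11 treated 1 (-0.57). For C3AR1 the difference of -0.56 ± 0.21 was not called (adjusted p = 0.0667) but was without MOLM13 treated library 1 (-0.71, adjusted p = 0.0459). CXCR2 gave -0.36 ± 0.15 (adjusted p = 0.102) and was called without MV4-11 control library 2 (-0.53, adjusted p = 0.00569).

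Untreated lines differed in most of the 9 genes, as they did in most genes tested. Compared with MOLM13, MV4-11 cells had 7 genes higher and 1 lower (34.2% and 29.3% of 17597 genes). C3AR1 was 9.61-fold higher (3.26 ± 0.15, adjusted p = 1.54e-13), CX3CR1 5.98-fold, C5AR1 5.50-fold and CCR1 2.76-fold higher, while CCR7 was 12.4-fold lower. The CXCR4 difference of 0.33 ± 0.06 was at the fold limit and was lost without MOLM13 control library 1 (0.27) or MV4-11 control library 2 (0.30). OCI-AML3 cells had 4 higher and 4 lower than MOLM13 (33.7% and 30.5%). CCR1 was 10.2-fold higher (3.35 ± 0.08, adjusted p = 6.39e-18) and CCR2 2.18-fold lower (-1.12 ± 0.07, adjusted p = 1e-11). FPR1 (25 reads against 1, ratio 6.94 with a 95% exact interval of 1.14 to 285) was called at an adjusted p of 0.0486, and was not called without MOLM13 control library 1 (adjusted p = 0.279) or 2 (0.0545) or without OCI-AML3 control library 1 (0.077) or 3 (0.117), nor without the filter (0.0509), by DESeq2 (0.109) or by limma-voom (0.254). CXCR4 missed the fold limit with 0.30 ± 0.06 and passed it without MOLM13 control library 2 (0.36), with upper-quartile scaling (0.33) and without scaling factors (0.49). It also passed without the filter (0.35) and with limma-voom (0.35). Against MV4-11, OCI-AML3 cells had 1 gene higher, CCR1 (3.70-fold), and 6 lower (33.1% and 34.3%), of which C3AR1 was 19.6-fold and CCR2 3.28-fold lower. CCR7 was called lower in OCI-AML3 than in either line, from 4 reads in the 3 untreated libraries. It passed the filter of this fit only through the MOLM13 groups and treated MV4-11 cells. CCR7 is counted among the lower genes in each of these comparisons of untreated lines, so those counts include a gene kept where it is high.

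CCR1 and CCR2 sit in a cluster of chemokine receptor genes on chromosome 3, and other genes around them were measured in the same libraries. Of 14 genes of the cluster, 6 were tested in MOLM13 cells, and under OTX015 4 of these fell and 0 rose (median log2 fold-change -0.60 against 0.01 for all genes, of which 24.7% fell). CCR2 and CCR1 are among the 4, so the neighbors called were LZTFL1 and FYCO1 only. LZTFL1, 488.0 kb away, fell by 0.71 ± 0.10 and FYCO1, 400.7 kb away, by 0.46 ± 0.07. SACM1L at 640.1 kb (-0.05 ± 0.06, adjusted p = 0.495) and CCRL2, an atypical receptor 50.9 kb from CCR2 (-0.48 ± 0.23, adjusted p = 0.0634), were not called. With both agents CCRL2 was above the control (0.58 ± 0.20, adjusted p = 0.00876) while CCR2 and CCR1 stayed below it.

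**Figure D5:**
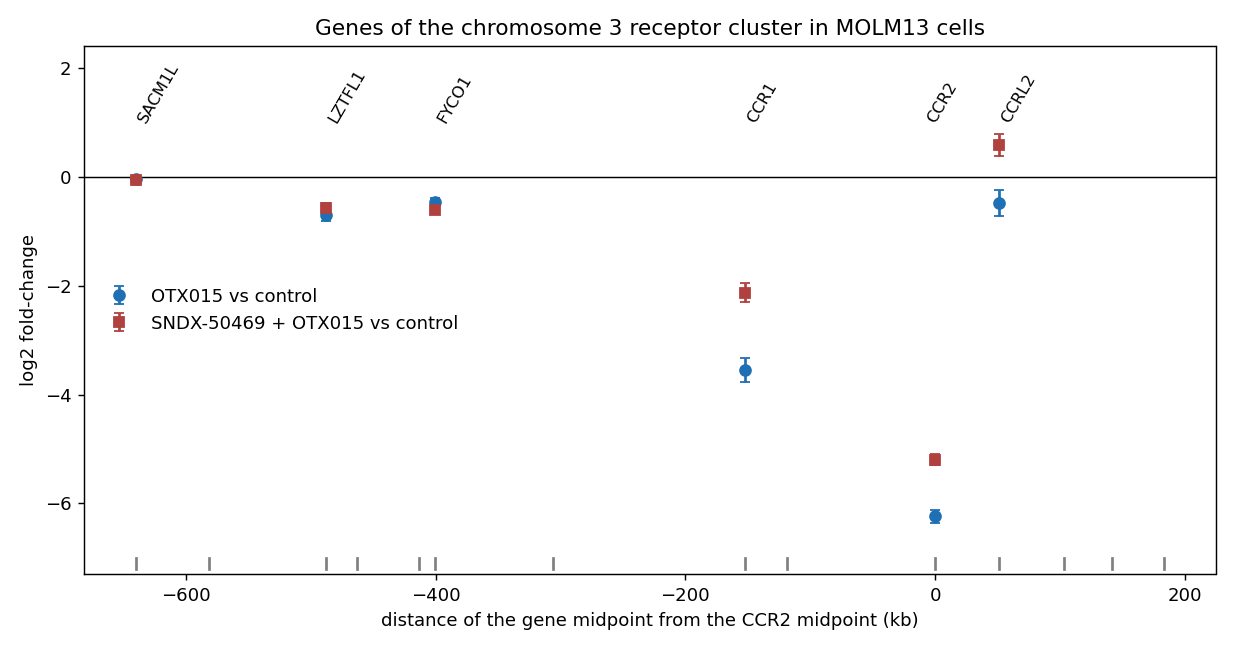
Log2 fold-change against the MOLM13 control of 6 tested genes of the chromosome 3 cluster, by distance (kb) of the gene midpoint from that of CCR2. Circles are OTX015 and squares both agents, bars are standard errors, and gray ticks mark the 14 genes. CCR2 and CCR1 lie lowest and SACM1L, 640.1 kb away, lies at -0.05.

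Other genes of the chemoattractant system were taken from fixed lists. Of 35 other chemoattractant receptors, 15 were tested in MOLM13 cells. With SNDX-50469 2 rose and 0 fell, with OTX015 0 rose and 7 fell, and on adding SNDX-50469 to OTX015 8 rose and 0 fell (medians 0.29, -0.48 and 0.90 against 0.01, 0.01 and 0.01 for all genes). Of all genes, 8.06% rose and 5.24% fell with SNDX-50469, 23.5% and 24.7% with OTX015, and 18.4% and 16.5% on adding SNDX-50469 to OTX015. The 8 rises include FPR2 and FFAR2, which passed the filter only through the group with both agents. GPR183, an oxysterol receptor, held 114 and 99 reads in the controls, 7 and 14 with OTX015 and 87 and 131 with both. PTAFR, the receptor for platelet-activating factor, rose by 0.58 ± 0.19 with SNDX-50469 and fell by 1.95 ± 0.27 with OTX015, and with both agents it stayed below the control (-1.91 ± 0.27). FPR2, a paralog of FPR1, held 0 and 1 reads in the controls and 14 and 15 with both agents (ratio 32.4, 95% exact interval 5.38 to 1320). In MV4-11 cells 5 of 16 tested rose and 1 fell with SNDX-50469, against 11.4% and 9.34% of all genes. The 5 rises include CMKLR1 (mean of 0.175 CPM in the controls and 1.97 CPM treated), which passed the filter only through the treated libraries. In OCI-AML3 cells 1 of 13 rose, near the 8.58% of all genes, and 2 fell (4.53% of all genes).

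Of 29 genes matched on the ligand list, 10 were tested in MOLM13 cells. The list also holds CFP and CFD, complement pathway proteins that are not ligands of these receptors. CFP is among the rises with SNDX-50469, alone and on top of OTX015, and CFD is among the rises with OTX015. SNDX-50469 raised 4 and lowered 0, OTX015 raised 2 and lowered 4, and adding SNDX-50469 to OTX015 raised 6 and lowered 0 (medians 0.43, -0.22 and 1.22). The shares of all genes were 8.06% and 5.24%, 23.5% and 24.7%, and 18.4% and 16.5%, so the 2 rises under OTX015 are near the share of all genes. ANXA1, whose protein and its peptides act on formyl peptide receptors, held 186 and 203 reads untreated, 830 and 899 with SNDX-50469, 55 and 59 with OTX015 and 1058 and 1151 with both. The ANXA1 rise on adding SNDX-50469 to OTX015 (4.31 ± 0.11, adjusted p = 4.37e-42) was the largest on this list. CXCL8, a ligand of CXCR2, fell by 3.37 ± 0.33 with OTX015 and rose by 1.37 ± 0.17 with SNDX-50469. CCL23, which binds CCR1, fell by 4.24 ± 0.43 with OTX015 and was 4.01 ± 0.42 below the control with both. CX3CL1, the ligand of CX3CR1, had 0 reads in every library but 1, which held 1 read.

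Of 44 signalling genes downstream of the receptors, 43 were tested in MOLM13 cells, and adding SNDX-50469 to OTX015 raised 20 and lowered 1 (median 0.27 against 0.01 for all genes, of which 18.4% rose and 16.5% fell). OTX015 alone raised 10, near the 23.5% of all genes, and lowered 17 (24.7% of all genes), and SNDX-50469 alone raised 10 and lowered 1 (8.06% and 5.24% of all genes). RGS18, a regulator that dampens G protein signals, fell by 3.86 ± 0.39 with OTX015 and rose by 1.08 ± 0.19 with SNDX-50469. The Src family kinase FGR rose by 1.59 ± 0.20 with SNDX-50469 and fell by 2.28 ± 0.35 with OTX015. GNA15, a G protein alpha subunit of blood cells, fell by 1.56 ± 0.05 with OTX015 and remained 1.44 ± 0.05 below the control with both. In OCI-AML3 cells 2 of 42 rose and 1 fell, below the 8.58% and 4.53% of all genes.

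The genes whose log2 CPM was most like that of each receptor over the 18 libraries are given as a description, since libraries of the same line and treatment are not independent points. CCR2 was most like MCPH1 (Pearson r = 0.974), ZNF689 (0.968) and IL17RE (0.966). CCR1 was most like CD36, a scavenger receptor (0.992), TNS1 (0.990) and TTC7B (0.989), and CXCR2 was most like MS4A6A (0.988), AIF1 (0.983) and ARHGAP9 (0.975). CX3CR1 resembled TCP11L2 (0.956), TRAF3IP3 (0.950) and ANXA1 (0.945), and CXCR4 resembled VCL (0.949), PPP1R21 (0.939) and TGFB1 (0.932). C3AR1 was most like ST3GAL6 (0.972) and resembled DAPP1 (0.966). FPR1 (BCL9L at 0.925) and C5AR1 (TNFRSF10C at 0.930) had lower best values and few reads. For CCR7 the best values (PCBP1 at 0.987, FANCE at 0.986 and RANBP3 at 0.986) were over all libraries, and over the 8 MOLM13 libraries alone they were 0.899, 0.849 and 0.943.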

How the data were processed

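RNA of 18 libraries was sequenced, and the authors deposited raw counts, whole reads per Ensembl gene, in a table with a column for every library. According to the submitters' notes the reads went through STAR against hg38 (no versions), whereas the methods of the study describe TopHat2 and Cufflinks2, so the aligner is unsure. Neither the counting program nor the strand setting and annotation release is given in the sources used here. Groups came from the labels. These do not say whether libraries of a group were separate cultures. The figure legends of the study call the MOLM13 and OCI-AML3 RNA samples biologic replicates. The p-values measure the spread between these libraries. MV4-11 libraries are numbered as in their titles, although their column names carry other numbers. No libraries held identical values. Symbols named 55603 of 58037 IDs, and IDs without one held 0.156% of the counts. Positions and promoter windows are RefSeq, GRCh38.p14, the assembly that hg38 denotes.

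The main test was the quasi-likelihood F-test of edgeR 4.0.16 (limma 3.58.1, R 4.3.3), after TMM scaling and filterByExpr (minimum count 10), with group means and no covariates. MOLM13, MV4-11 and OCI-AML3 libraries were fitted apart (biological coefficient of variation 3.06%, 13.2% and 3.15%), and lines were compared in 1 fit of all libraries (6.14%). A gene was called where its p, adjusted over all genes by Benjamini and Hochberg, was below 0.05 and its change at least 0.32 on the log2 scale, the fold limit of the study, which used limma. The SE is the log2 fold-change divided by the square root of F. CPM values were scaled by TMM over all 18 libraries, so their ratios differ slightly from fitted folds. Where a group held 1 to 3 reads, a ratio with an exact 95% interval was given. The scripts were tested on simulated data. Named genes were the 9 receptors, at most 4 called genes per list and comparison with the largest changes, the 3 genes most like each receptor (some genes are not reported here), and, chosen after their values were seen, CXCL12, CX3CL1, CCRL2 and SACM1L. Members, lists and tests were chosen with earlier results of these data known. Alternatives were other scalings, no filter, DESeq2 1.42.0, limma-voom with quantile normalization, a replicate block, 1 fit of all libraries, no fold limit, and each library left out.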

Additional observations from a re-analysis of the deposited data

Results flagged for a closer look

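Differences in the response to SNDX-50469 between lines were called for 6 pairs of gene and line. Relative to MOLM13, OCI-AML3 gave CCR2 -1.02, CX3CR1 -1.47 and CXCR4 -0.63 on the log2 scale, each by a test of the difference itself. MV4-11 gave CCR1 0.81, CX3CR1 -0.65 and CXCR4 0.46 relative to MOLM13, with a different dose and medium, which cannot be told apart from the line.

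The response to SNDX-50469 in MOLM13 cells also differed between cells with and without OTX015 for 7 receptor genes. The interaction was 1.56 for CCR1, 1.39 for CCR7, 1.07 for CX3CR1, 0.65 for CXCR2, 0.60 for CXCR4, 3.04 for C5AR1 and 1.89 for C3AR1. Groups of 2 or 3 libraries were too small for a test of outlying libraries.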

How the results depend on the processing

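Of 84 calls of a receptor gene in a comparison, none changed direction under any alternative run, and 12 were lost under at least 1. DESeq2 lost CXCR2 with SNDX-50469 in MOLM13 (0.34, adjusted p = 0.133) and its interaction (0.68, adjusted p = 0.0632), limma-voom the CX3CR1 difference between MV4-11 and MOLM13 (-0.34) and the CXCR2 interaction (0.53), and no filter the CXCR4 difference between untreated MV4-11 and MOLM13 (0.31). The losses in a fit of all libraries and without single libraries stand beside their results. Values that were not called and changed sign were, for SNDX-50469 in MV4-11, CXCR2 with upper-quartile scaling (0.00), no scaling factors (0.02) or limma-voom (0.00) and without single libraries (-0.18 to 0.14), and CCR7 with the replicate block (0.02) and without single libraries (-0.55 to 0.88). In OCI-AML3 they were C5AR1 with limma-voom (-0.03) and FPR1 without single libraries (-0.13 to 0.61). The FPR1 interaction turned to 0.35 with limma-voom and ranged from -2.55 to 0.60 without single libraries. The CCR7 difference between OCI-AML3 and MOLM13 turned to -0.04 with DESeq2 and ranged from -0.43 to 3.04 without single libraries. Between untreated OCI-AML3 and MV4-11, CXCR4 turned to 0.02 without scaling factors and 0.05 without the filter, and FPR1 to -0.01 with limma-voom, with -0.24 to 0.58 without single libraries. The cause was not tested. The FPR1 difference in response between OCI-AML3 and MOLM13 was called without the filter (adjusted p = 0.03), and C3AR1 with SNDX-50469 in MV4-11 in a fit of all libraries (0.34, adjusted p = 0.013).

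Without the fold limit 4691 genes were called with SNDX-50469 in MOLM13 (1910 with it) and 6338 in OCI-AML3 (2178 with it). For SNDX-50469 in MV4-11, a fit of all libraries called 5934 genes in place of 3208. Leaving out single libraries gave 1637 to 3340 genes and 3 to 5 receptor genes there, and 462 to 684 genes in place of 721 for the difference between OCI-AML3 and MOLM13. In MOLM13 and MV4-11 such fits leave a lone library, assumed to vary like the other groups. Without scaling factors the median of all genes moved from 0.046 to 0.243 for untreated OCI-AML3 against MOLM13 and from 0.062 to 0.206 for MV4-11. Replicate numbers did not pair the libraries (correlations of same-numbered libraries between -0.032 and 0.08, and OCI-AML3 replicate 2 correlated better with another number), and the replicate block gave 1847 calls in MOLM13 with SNDX-50469 and 4029 in MV4-11. It changed no call of a receptor gene. No paired analysis was possible for untreated lines, because lines share only a number. Counts were lowest for FPR1, C5AR1 and CCR7, with 0 to 73, 2 to 59 and 0 to 244 reads in a library. For CCR7 the lowest counts (0 to 4) were in OCI-AML3, the line with the deepest libraries.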
